A study of Zea mays with 4 samples.

Results

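The sites described here are pseudouridines (Ψ) in the coding sequence of maize transcripts whose neighbouring bases are uncommon among the listed sites. They were chosen by position and sequence alone. Each lies in a coding exon of a gene with a single listed site, and the Ψ stands between G and C, A and C, C and G, or A and G, or before an A. This rule took 40 sites in 40 genes, out of 388 listed sites in 362 genes. Of the 315 coding sites in all, 267 lay in genes with 1 listed site, and the 227 that the rule did not take are called the other coding sites below. Their Ψ lay between C and C (90 sites), G and G (58 sites), U and C (42 sites) or U and G (37 sites).

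All sites came from shoots of Zea mays inbred B73, harvested from 7-day-old plants that had germinated in soil. Polyadenylated RNA from 1 round of enrichment was split between 2 input libraries, which saw no bisulfite, and 2 libraries treated with it, with no genotype or treatment contrast beyond that. The site list holds sums over the replicates, so no value has a replicate SD, the depth of a single library is unknown, and no test over samples was possible. Read depth at a site ran from 6 to 7284 over the whole list, with a median of 566.

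Pseudouridine is an isomer of uridine in which the base is joined to the sugar through carbon instead of nitrogen. It is made after transcription by pseudouridine synthases, of which some recognise the RNA by themselves through its sequence and fold, and others are led to it by guide RNAs. In bisulfite-induced deletion sequencing (BID-seq), bisulfite forms an adduct with Ψ, reverse transcriptase skips the adduct, and the modified base appears as a gap in the read. The gap ratio is the share of gapped reads at the site. The Ψ fraction, or stoichiometry, is the authors' conversion of that ratio through a calibration curve made with synthetic RNA for each surrounding sequence.

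The following 21-base windows show 1 or more examples of each flanking pair, chosen because the results below turn on them. They are written 5′ to 3′ with T for U, the Ψ is base 11, and capitals mark the bases shared around it within its pair. In the windows with A after, the base before the Ψ is also in capitals, though it varied within that pair.
mha4 (LOC542052), A before and C after: ctgtccgagATCGcggagcag
LOC100191492, A before and C after: cctgcatcgATCGggatccaa
LOC100283791, A before and G after: tcggcagcCATGgctacggag
LOC100280688, A before and G after: gcctacggCATGtcccccgcg
LOC100279845, C before and G after: gtcgcggaGCTGctcccgcgg
LOC100216930, C before and G after: ggttgcatGCTGgaccttaac
LOC100277233, C before and G after: tactcgcaGCTGccgccggcc
LOC101027245, G before and C after: ctggatcctGTCcgggccgcc
LOC100281237, G before and C after: gcttcattgGTCgaggaagac
trh1 (LOC100274083), G before and C after: aagcacgccGTCtccgaggga
LOC103642489, A after: tattctaagCTAgactctaaa
LOC100283974, A after: gatgaagacCTAcggcttcct

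G before and C after was the most frequent pair, with 20 sites. C before and G after had 7, A before and C after 5, A before and G after 3, and A after 5. The 40 sites lay on 10 chromosomes, with 20 on each strand. Together they held 27954 reads, of which 1498 were gapped. Depth per site ranged from 6 to 3325 reads (median 365.5), against 14 to 7284 (median 465) at the other coding sites.

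The median gap ratio of the 40 sites was 6.66% (2.73 to 66.7%), and that of the other coding sites 7.28% (2.73 to 46.5%). The median Ψ fraction stood the other way round, at 30.4% (12.0 to 95.3%) against 24.3% (6.29 to 81.1%). Of the 40 sites, 28 (70.0%, Wilson 95% interval 54.6 to 81.9%) lay above the median fraction of the other coding sites, whereas by gap ratio 17 did (42.5%, 28.5 to 57.8%). Intervals in the text are Wilson intervals at the 95% level. They cover counting error only, and treat the reads of a site, or the sites of a group, as independent. Reads counted after PCR need not be independent molecules, and the sites share the same libraries.

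A fraction over 50% was listed at 10 of the 40 sites (25.0%, 14.2 to 40.2%) and at 19 of the 227 other coding sites (8.37%, 5.42 to 12.7%). A fraction under 20% was listed at 7 of 40 (17.5%, 8.75 to 32.0%) and at 82 of 227 (36.1%, 30.2 to 42.6%). The former pair of intervals did not overlap, and the latter overlapped narrowly. The separation of the intervals at 50% was lost with a depth minimum, which left fewer sites. The share stayed higher among the 40, so the overlap does not show equal shares. With at least 50 reads the share was 14.3% (6.26 to 29.4%) against 5.09% (2.87 to 8.89%), and with at least 200 reads 10.3% (3.58 to 26.4%) against 2.87% (1.23 to 6.55%), and both pairs of intervals overlapped. The separation was also lost with the sites before A left out, at 20.0% (10.0 to 35.9%) against 8.37%. The other coding sites were not uniform. Those between U and C alone had shares like those of the 40, with 10 of 42 over 50% (23.8%, 13.5 to 38.5%), 7 of 42 under 20% (16.7%) and 28 of 42 above the median (66.7%).

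The fraction exceeded the gap ratio by a median factor of 4.04 at the 40 sites and 3.05 at the other coding sites. This factor was larger at these contexts in each range of depth. Under 200 reads, the 11 sites had a median factor of 3.48, against 2.63 at 53 other coding sites. From 200 to 800 reads it was 4.16 (18 sites) against 3.05 (94 sites), and from 800 reads up it was 4.30 (11 sites) against 3.08 (80 sites). In the upper 2 ranges the median gap ratio was lower at the 40 sites than at the others (6.32 against 7.71%, and 3.84 against 4.92%), while the median fraction was higher (28.7 against 24.0%, and 20.2 against 16.3%). In these 2 ranges the order of the groups depended on the scale. Under 200 reads the 40 sites were higher on both, with a median gap ratio of 18.4 against 13.4% and a median fraction of 72.2 against 37.2%. With the sites before A left out, these medians were 14.8 and 50.3% (7 sites). The sites between U and C had 19.3 and 68.5% in this range (7 sites). Depth was not matched within it, since it holds all sites with under 50 reads, 5 of the 40 and 11 of the 227. The sites between U and C had higher median fractions than the 40 in the upper 2 ranges, 30.5 and 28.0%.

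**Figure D1:**
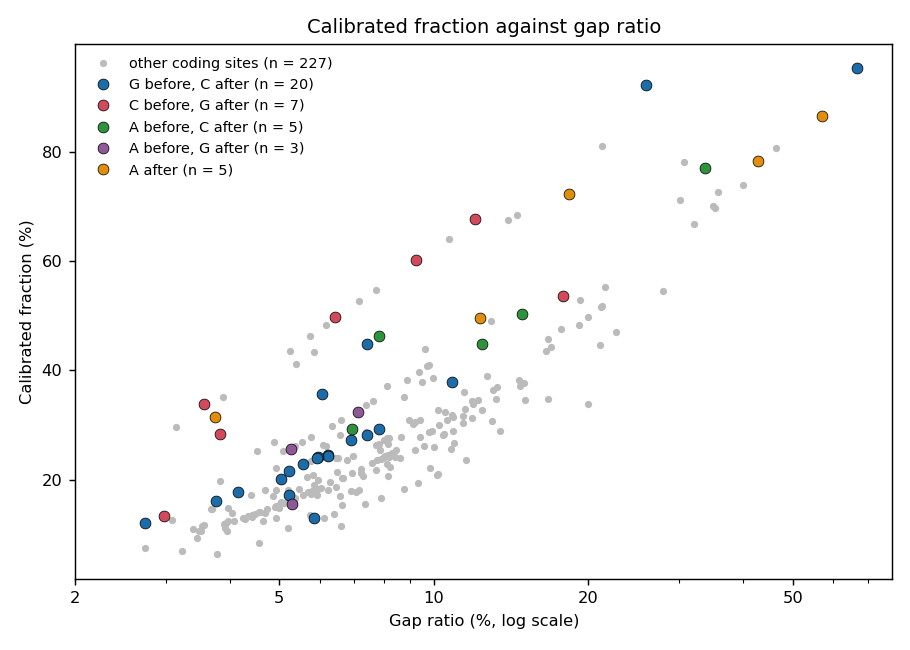
Ψ fraction (%) against gap ratio (%, log scale) at each of the 40 sites, coloured by flanking pair, with the 227 other coding sites in grey. Sites of 1 gap ratio spread widely in fraction, and the sites with C before and G after lie above most others at the same gap ratio, with a median factor of 6.54 between the scales.

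The 7 sites between C and G shared more sequence than the rule asked for. In all of them the Ψ was the second base of a CUG leucine codon, and in all of them that codon followed a G. For comparison, CTG triplets elsewhere in the 259 distinct windows of coding sites in genes with 1 site were preceded by G in 22 of 50 cases (44.0%, 31.2 to 57.7%), and were in frame as a codon in 20 of 50 (40.0%, 27.6 to 53.8%). Both intervals lay below those of the 7 sites, whose lower limit was 64.6%. The G and the frame were compared because they recurred in these sites, so the comparison is no test. The 7 windows were not all distinct, unlike the 259. A G at that place also stood in 134 of the 227 other coding sites (59.0%, 52.5 to 65.2%). The second codon base held 67.2% of the sites between G and G and 78.6% of those between U and C. The 259 windows come from listed genes only and are no sample of the transcriptome.

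Their fractions had a median of 49.8% and ran from 13.3 to 67.8%, and 6 of 7 exceeded the median of the other coding sites. By gap ratio (median 6.42%), 3 of 7 did. LOC100279845 (Zm00001eb319820, chromosome 7, 149969343 to 149970996) had 68 gapped of 566 reads at position 149970009, codon 198, a gap ratio of 12.0% (9.59 to 15.0%) and a fraction of 67.8%, the highest of this pair. Among 108 coding sites in genes with 1 site and with a depth within a factor of 2 of its own, called sites of like depth below, 105 had a lower gap ratio. LOC100216930 (Zm00001eb254250, chromosome 5, position 214368917) had 45 gapped of 252 reads, 17.9% (13.6 to 23.1%), and a fraction of 53.6% at codon 83. Of 105 coding sites of like depth, 101 were lower.

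The deepest sites of the pair lay at the other end. LOC100277233 (chromosome 6, position 19084103, codon 96) had 44 gapped of 1235 reads, 3.56% (2.66 to 4.75%), and a fraction of 33.9%. LOC103639924 (chromosome 1, position 157758787, codon 269) had 41 of 1068 reads, 3.84% (2.84 to 5.17%), and 28.3%. LOC100381276 (chromosome 5, position 65696496, codon 16) had 99 of 3325 reads, 2.98% (2.45 to 3.61%), and 13.3%. The intervals of these 3 sites overlapped one another, and none reached that of LOC100279845 or LOC100216930.

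LOC100279845 and LOC100277233 have the same 5 bases around the Ψ (GCUGC), so that difference, 12.0 against 3.56%, does not depend on the calibration. The other 2 of the 40 sites in this context had gap ratios between these values, and their intervals overlapped that of LOC100279845. The same holds for LOC100216930 and LOC100381276, both in GCUGG, at 17.9 and 2.98%.

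LOC100381276 was also the single site of the 40 that lay within 10 bases of a splice junction, 2 bases from it. Its window in the genome, atctgcagGCTGgcggtgaag, differs before the capitals from that in the spliced transcript, gatgccaaGCTGgcggtgaag, and the capitals are the same in both.

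The 5 sites between A and C were all followed by G after the C, so that each read AUCG. ATC triplets elsewhere in the windows were followed by G in 15 of 39 cases (38.5%, 24.9 to 54.1%), an interval just below that of the 5 sites (lower limit 56.6%). This G was likewise compared because it recurred in the 5 sites, so the comparison is no test. Here the codon was not shared. The Ψ was the second base of an AUC isoleucine codon at 2 sites, the last base of a GAU aspartate codon at 2, and the first base of a UCG serine codon at 1.

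All 5 sites lay above the median fraction of the other coding sites, with a median of 46.3% (29.3 to 77.1%), and 4 of 5 did so by gap ratio, with a median of 12.4% (6.93 to 33.8%). Their depth was low, with a median of 162 reads (121 to 332). The highest was in mha4 (LOC542052, Zm00001eb432500, chromosome 10, 148409956 to 148416538), whose name stands for a plasma membrane H+-ATPase of maize, a proton pump that energises transport across the membrane. At position 148416024, codon 908, 53 of 157 reads were gapped, 33.8% (26.8 to 41.5%), with a fraction of 77.1%. All 78 coding sites of like depth had a lower gap ratio, and their median was 10.1%.

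The other 4 sites were lower. LOC100281235 (chromosome 9, position 137555811) had 24 of 162 reads, 14.8% (10.2 to 21.1%), and a fraction of 50.3%. LOC100285146 (chromosome 3, position 115014842) had 15 of 121, 12.4% (7.66 to 19.4%), and 44.8%. LOC100191492 (chromosome 1, position 45597822) had 14 of 202, 6.93% (4.17 to 11.3%), and 29.3%. These 3 share GAUCG with mha4, and the interval of mha4 lay above all of theirs, while LOC100281235, LOC100285146 and LOC100191492 overlapped one another. Over all 8 listed sites in GAUCG the gap ratio ran from 3.68 to 44.4%, so mha4 was not the highest in this context. LOC100383438 (chromosome 2, position 39710956), in UAUCG, had 26 of 332 reads, 7.83% (5.40 to 11.2%), and a fraction of 46.3%. Its gap ratio was close to that of LOC100191492, and its fraction was higher.

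The 3 sites between A and G all followed a C, so that each read CAUG. ATG triplets elsewhere in the windows followed a C in 9 of 35 cases (25.7%, 14.2 to 42.1%), and the lower limit for the 3 sites was 43.9%. That C was also compared because it recurred in the 3 sites, so the comparison is no test. Their gap ratios were 7.12% (5.31 to 9.48%) in LOC100283791, 5.26% (3.40 to 8.07%) in LOC103644301 and 5.30% (3.53 to 7.90%) in LOC100280688, and the 3 intervals overlapped. None exceeded the median gap ratio of the other coding sites.

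The fractions of these 3 sites were 32.4, 25.6 and 15.6%, in the same order. LOC103644301 and LOC100280688 thus had nearly equal gap ratios, while the fraction was higher in the former, which read CAUGG, than in the latter, which read CAUGU. The Ψ was the last base of a CAU histidine codon in LOC100283791 (chromosome 10, position 23492697, codon 135, 42 of 590 reads). It was the second base of an internal AUG methionine codon in LOC103644301 (chromosome 1, position 303274182, codon 550, 19 of 361 reads) and in LOC100280688 (chromosome 1, position 215278874, codon 109, 22 of 415 reads).

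The 20 sites between G and C had a median fraction of 24.3%, equal after rounding to that of the other coding sites, and 10 of 20 lay above it. Their median gap ratio was 5.99%, and 6 of 20 exceeded the median of the other coding sites. A second G before the first was present at 13 of 20 (65.0%, 43.3 to 81.9%), against 10 of 44 GTC triplets elsewhere in the windows (22.7%, 12.8 to 37.0%), and these intervals did not overlap. This comparison, too, was added after the data were seen. A G at that place was frequent at listed sites in general, in 134 of the 227 other coding sites (59.0%, 52.5 to 65.2%) and 70 of the 90 between C and C (77.8%). A GUC valine codon held 11 of the 20 sites (55.0%), close to the 26 of 43 GTC triplets elsewhere that were in frame (60.5%).

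The highest fractions of this pair at 40 or more reads were in LOC101027245 (44.8%), LOC100384475 (37.8%), LOC100280323 (35.7%), LOC103641883 (29.2%) and LOC100285420 (28.2%). Their gap ratios were, in turn, 7.41% (26 of 351 reads), 10.9% (20 of 184), 6.04% (18 of 298), 7.82% (14 of 179) and 7.40% (29 of 392), and all 5 intervals overlapped. The 5 sites lie in 4 different contexts of 5 bases, so their order by fraction was not compared. Values of 95.3% in LOC103646110 and 92.3% in LOC100191600, named here after their values were seen, rested on 4 of 6 and 7 of 27 reads, with gap ratios of 66.7% (30.0 to 90.3%) and 25.9% (13.2 to 44.7%).

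At the low end stood LOC100281237 (chromosome 6, position 167709521, codon 245) with 83 of 3038 reads, 2.73% (2.21 to 3.37%), and a fraction of 12.0%. The Ψ in trh1 (LOC100274083, Zm00001eb160020, chromosome 3, 224878424 to 224879304), which encodes a thioredoxin h, a small protein that reduces disulfides, lay at position 224878810, codon 135. It had 58 of 993 reads, 5.84% (4.55 to 7.48%), and a fraction of 12.9%. The gap ratio in trh1 was above that in LOC100281237 with no overlap of intervals, and the 2 fractions were nearly the same, in CGUCU and GGUCG. LOC100277233 of the C and G pair had a lower gap ratio than trh1 (3.56%) and a higher fraction (33.9%), with intervals that met only between 4.55 and 4.75%. LOC100280568 (chromosome 5, position 2678195) completed the 3 lowest at 75 of 1995 reads, 3.76% (3.01 to 4.69%), and 16.2%.

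Within GGUCG, the most frequent context with 8 of the 40 sites, the calibration factor stayed between 3.67 and 4.40 over the 12 listed sites, and gap ratios could be set side by side. The site in LOC100194265 was the highest of the 8, with 133 of 1927 reads, 6.90% (5.85 to 8.12%), and a fraction of 27.3%, named after its values were seen. Its interval lay above those of LOC541703 (84 of 2024 reads, 4.15%, 3.36 to 5.11%), LOC100280568 and LOC100281237, which are the 3 deepest sites of the pair, and 67 of 74 coding sites of like depth had a lower gap ratio. Outside this context, the site in LOC100193444 (chromosome 3, position 10062377) read UGUCG and had 30 of 574 reads (5.23%) and a fraction of 17.2%. It was in codon 2, directly after the start codon, and was likewise named after its values were seen.

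Near-identical windows, with at most 3 mismatches, linked 3 pairs of sites, and in 2 of the pairs the gap ratio intervals overlapped. The exception lay within a gene family. thi1-2 (LOC542715, chromosome 3, position 224380759) and thi1-1 (LOC542714, chromosome 8, position 141785045) are named for thiamine biosynthesis, the pathway of the vitamin B1 cofactor, and their windows differ by G15T, counted from the 5′ end of the window. The difference lies outside the 5 bases GGUCG that they share. This pair was chosen after its values were seen, and thi1-1 is not among the 40 since its gene has 2 listed sites.
thi1-2: acgcgcgagGTCgtgcccggc
thi1-1: acgcgcgagGTCgttcccggc
In thi1-2, 84 of 1609 reads were gapped, 5.22% (4.24 to 6.42%), with a fraction of 21.6%. In thi1-1, 366 of 3796 were gapped, 9.64% (8.74 to 10.6%), with a fraction of 35.4%. The gap ratios did not overlap, though reads of such copies can be assigned to either gene. The window of LOC100285420 recurred without a mismatch in LOC103641822 (chromosome 10, position 131405498, 73 of 703 reads, 10.4%, 8.34 to 12.9%), whose interval overlapped that of LOC100285420 (5.20 to 10.4%).

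The 5 sites followed by A had the highest median fraction of the 5 pairs, 72.2% (31.4 to 86.7%), and the lowest median depth, 49 reads (7 to 1362). All 5 exceeded the median fraction of the other coding sites. LOC118473053 (chromosome 1, position 25887213) had 4 gapped of 7 reads, 57.1% (25.0 to 84.2%), and a fraction of 86.7%. LOC103649663 (chromosome 3, position 9192544) had 6 of 14, 42.9% (21.4 to 67.4%), and 78.3%. Both Ψ were the second base of a GUA valine codon, and both intervals spanned more than 40 percentage points.

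LOC103642489 (chromosome 10, position 66746049, a CUA leucine codon) had 9 of 49 reads, 18.4% (9.98 to 31.4%), and a fraction of 72.2%. LOC100278097 (chromosome 2, position 210144227, the first base of a UAU tyrosine codon) had 16 of 130, 12.3% (7.72 to 19.1%), and 49.6%. LOC100283974 (chromosome 7, position 18999800, the first base of a UAC tyrosine codon) had 51 of 1362 reads, 3.74% (2.86 to 4.89%), and 31.4%. Only this last site exceeded 200 reads, and its interval lay below those of the other 4. All 5 were within 100 bases of a splice junction, at 13 to 76 bases with a median of 33, and the windows were the poorest in G and C of the 5 pairs, with a median of 50.0% outside the central 3 bases against 66.7% over the 40.

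**Figure D2:**
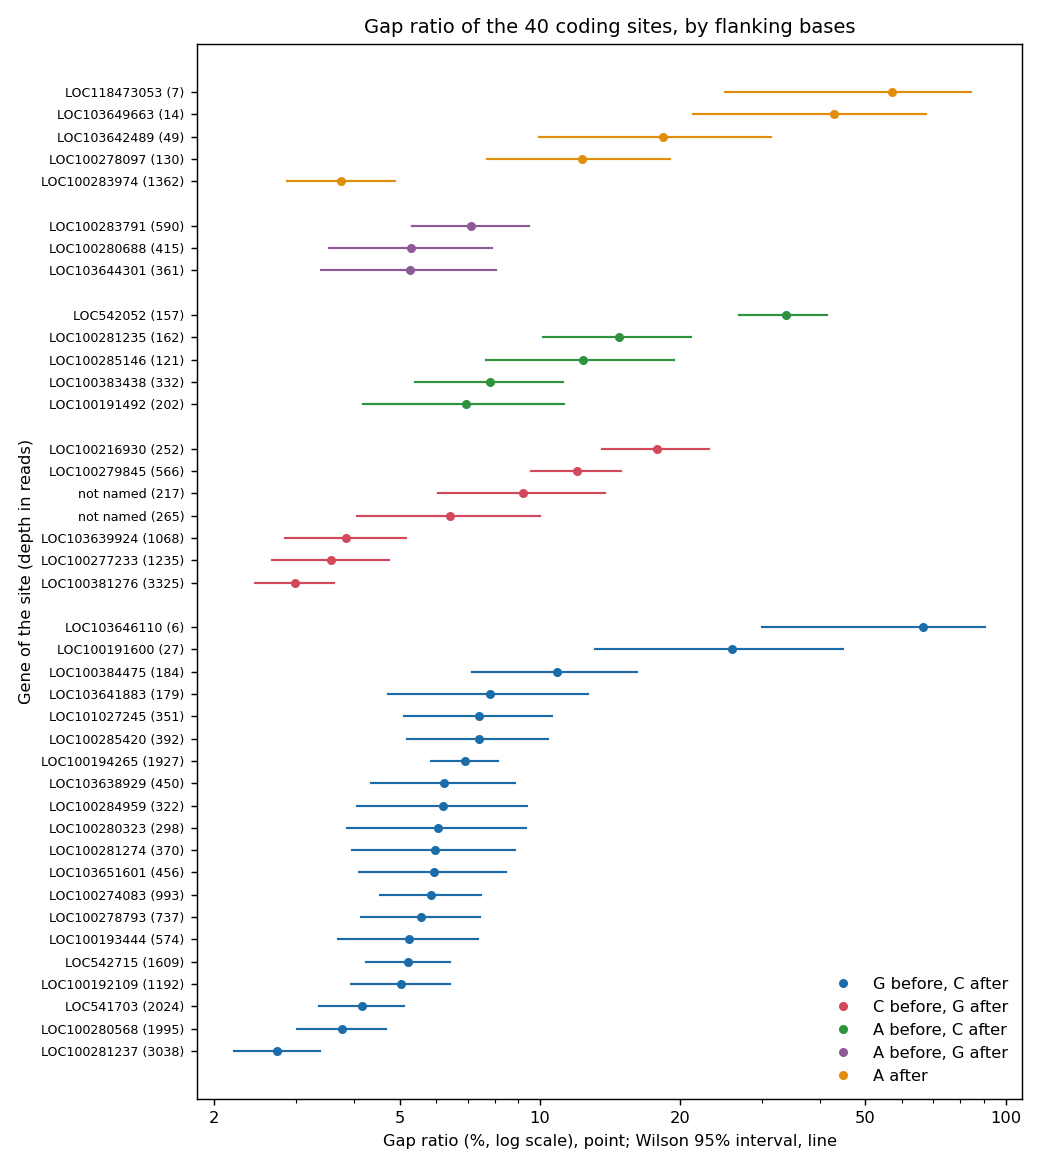
Gap ratio (%, log scale) of each of the 40 sites, grouped by flanking pair, with bars for the Wilson 95% interval. The site in mha4 (33.8%, 26.8 to 41.5%) stands above the rest of its pair, and the bars of the sites with 6, 7 and 14 reads are the widest in percentage points. Depth in reads follows each gene name, and 2 sites are drawn without a name.

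Over the 40 sites the gap ratio fell as the depth rose, with a Spearman coefficient of -0.888, and -0.835 over the 35 sites with at least 50 reads. The 227 other coding sites gave -0.837. Points share the same libraries and the filter that placed a site on the list, whose threshold at each depth is not given in the sources used here, and the part of that filter in the relation was not tested. The 10 sites with the higher pass score had between 24 and 133 gapped reads (median 59), and the 30 with the lower score between 4 and 99 (median 21), with median fractions of 29.8 and 30.4%.

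**Figure D3:**
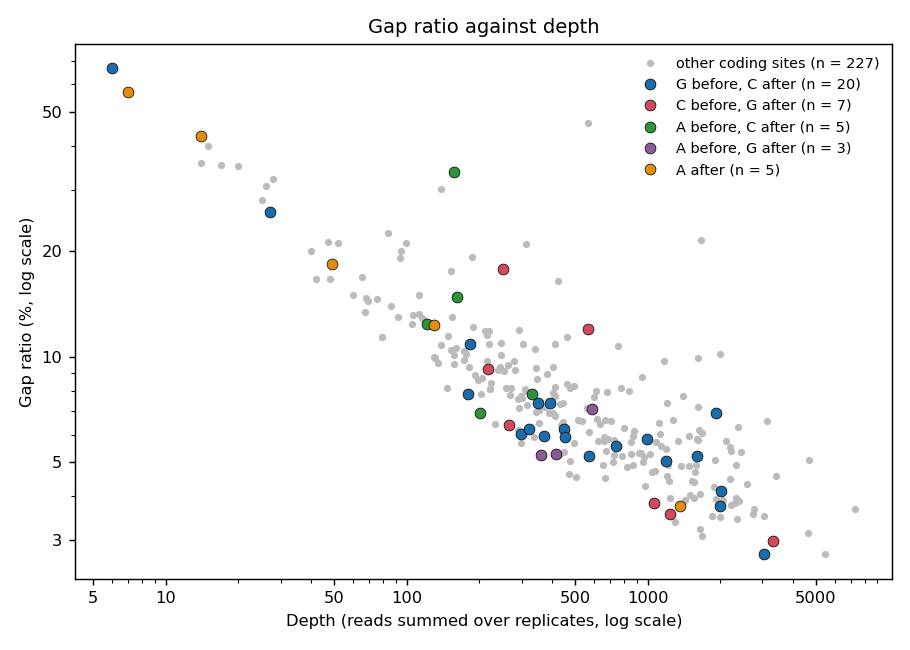
Gap ratio (%) against depth (reads summed over replicates), both on log scales, for the 40 sites by flanking pair and the 227 other coding sites in grey. The sites form a band that falls with depth (Spearman -0.888 over the 40), and mha4 at 157 reads, LOC100216930 at 252 and LOC100279845 at 566 lie above it.

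The calibration did not change the order of sites inside a context. In each of the 10 contexts of 5 bases with 2 or more listed sites, the fraction rose with the gap ratio. Between contexts the order changed. Of the 40 sites, 10 had gap ratios from 4 to 6%, and their fractions ranged from 12.9 to 25.6%. The 40 sites fell into 20 such contexts, of which 13 held a single site.

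The Ψ was the second base of its codon at 25 of the 40 sites (62.5%, 47.0 to 75.8%), the first at 8 (20.0%) and the third at 7 (17.5%). At the 222 other coding sites whose codon base could be read, the shares were 51.4% (44.8 to 57.8%), 16.7% and 32.0% (26.2 to 38.4%), in the same order. The intervals of the 40 overlapped those of the others at the second base and also at the last, where that of the 40 was 8.75 to 32.0%. GUC was the most frequent codon with 11 sites, followed by CUG with 7 and UCC with 4, and valine was the most frequent residue with 13 sites (32.5%). Since a fixed base on either side limits which codons can occur, these counts in part restate the rule.

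**Figure D4:**
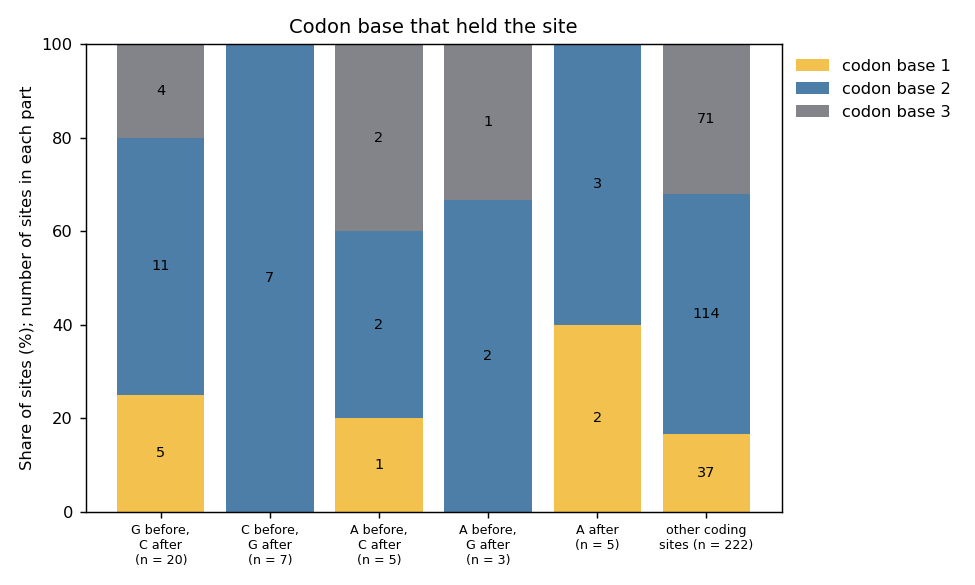
Share of sites (%), with their number printed in each bar segment, that had the Ψ at the first, the second or the third base of the codon, for each flanking pair and the 222 other coding sites. All 7 sites with C before and G after are at the second base, while the 20 with G before and C after fall on all 3 (5, 11 and 4).

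At the second base before the Ψ the 40 sites and the other coding sites were close, with G in 67.5% (52.0 to 79.9%) against 59.0%. At the second base after it, a G stood in 21 of 40 (52.5%, 37.5 to 67.1%), against 30.8% (25.2 to 37.1%) of the others, and a U in 3 of 40 (7.50%), against 35.7%. Of the 81 other coding sites with this U, 64 lay between C and C, and of those between G and G, 67.2% had a G there. The share of G and C outside the central 3 bases had the same median in both, 66.7%.

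Within 50 bases of a splice junction lay 8 of the 40 sites (20.0%, 10.5 to 34.8%) and 73 of the 227 others (32.2%, 26.4 to 38.5%), with overlapping intervals. The median distance was 122 bases (2 to 1557) against 109. It differed between pairs, from 33 for the sites before A to 591 for those between C and G. In LOC100279845, LOC100281235, trh1 and LOC100194265 the listed distance (666, 563, 386 and 263 bases) equals that to the 3′ end of the gene. There it need not mark a junction, yet these sites count in the medians and shares. The same was not examined at the other coding sites. The median position in the coding sequence was 510.5 bases from its start against 536, and 5 of the 40 lay in the first 50 codons.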

How the data were processed

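Per the labels and the methods of the study, B73 shoot RNA gave 2 input and 2 bisulfite-treated libraries. The authors ran their BID-seq pipeline on Zm-B73-REFERENCE-NAM-5.0, summed the replicates, and filtered sites by a P value-based method. The deposited depth is a count of reads, the deposited gap ratio is the share of gapped reads, and the deposited Ψ fraction comes from the authors' calibration curves. The sources do not say if input reads were counted in the depth, and they do not define the pass score. The strand setting, the handling of reads that align to several places and the threshold of the filter are not given in the sources used here.

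Gapped reads were obtained as depth times ratio, rounded (all 40 products lay 0.00145 or less from an integer). Wilson 95% intervals were computed with statsmodels 0.14.6, and medians and correlations with pandas 2.3.3 and scipy 1.17.1. The scripts were tested on simulated data. No p-value was computed, since sites are not replicates. Codon numbers come from the coding position, because the listed residue number differed from it at 17 of 40 sites. The listed distance to a splice junction was taken without its sign, and at some sites it equals the distance to the end of the gene. Gene limits and names came from the RefSeq table of the same assembly (39 of 40 genes matched), and Zm identifiers from the deposited expression table (39 of 40). That table's 2 expression columns were not used, as each name matches an input and a treated library, so gene expression is not analysed here. The tables used carry no product descriptions, so genes are described only where a symbol names their role.

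Named sites are all those of pairs with 10 or fewer sites and, in the larger pair, the 5 highest and 3 lowest fractions at 40 or more reads, the 3 deepest, and any site within 10 bases of a junction. Others are said to be chosen after their values were seen. Of the sites between C and G, 2 count in every total and are not reported singly here. Members and lists were chosen with earlier results of these data known. Alternatives were a minimum depth, the pass score, the scale, the pairs counted, genes with several sites and the splice distance.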

Additional observations from a re-analysis of the deposited data

How the results depend on the processing

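Of 37 alternative values, 29 stayed within the interval of the value in the text and 8 did not. Counted by gap ratio, the share under 20% was 87.5% (other coding sites 92.5%) and the share over 50% was 5.0% (other coding sites 0 of 227). The share above the median of the other coding sites was 42.5%. With at least 200 reads the share over 50% was 10.3%. Among sites of pass score 2, the share at the second codon base was 80.0% (8 of 10), against 53.1% of the other coding sites with that score. The share within 50 bases of a junction was 10.0% (1 of 10), against 26.6%. The share near a junction was 7.50% within 25 bases and 40.0% within 100 bases, against 16.3% and 48.5% of the other coding sites.

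Alternatives added after seeing the data left out recurring windows and, for the bases beside CUG, AUC and GUC, added genes with several sites or required 200 reads. With genes of several sites added, G preceded CUG at 8 of 8 sites, G followed AUC at 7 of 7, and G preceded GUC at 16 of 25 (64.0%). Clopper-Pearson limits differed from Wilson limits by no more than 0.551 points where 100 or more reads were present (35 sites) and 7.72 over all 40. No paired analysis was possible because the site values are sums over replicates, and for the same reason no replicate could be left out. Alternatives on gene expression were not run. Depth limits the sites under 50 reads most, where intervals span 20 percentage points or more.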
